A study of Mus musculus with 6 samples.

Results

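The BCL2 family decides whether a mitochondrion is breached and a cell dies, and 10 of its genes were read out in OT-I CD8+ T cells expanded under 2 cytokine mixes. The genes were listed by name, with earlier results of these data known. They are the guardians *Bcl2*, *Bcl2l1*, *Mcl1*, and *Bcl2a1b*, the BH3-only genes *Bcl2l11*, *Bbc3*, *Pmaip1*, and *Bid*, and the effectors *Bax* and *Bak1*. All 10 were found among the 57126 genes of the deposited count table, and all 10 passed the filter on low counts, with 78 to 12808 counts in each library. OT-I cells are mouse T cells with a transgenic receptor for an ovalbumin peptide. They were taken from lymph nodes and spleens, stimulated with nano-aAPCs, which are dextran-coated iron oxide particles that carry the peptide on H-2Kb together with anti-CD28, and harvested on day 6. The 3 TEff samples grew in IL-2, and the 3 TRM-like samples in the same cytokine with IL-15 and TGF-β added, so an effect of IL-15 and an effect of TGF-β cannot be told apart here. The expansion methods name human IL-2 and the RNA sequencing methods mouse IL-2. Nothing states that replicates came from separate mice or cultures, so p-values measure only the spread between these samples, which may be technical.

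Guardian proteins hold the effectors BAX and BAK inactive, and BH3-only proteins carry stress signals by binding the guardians or the effectors. In T cells, IL-2 and IL-15 are known to sustain *Bcl2* and *Mcl1*, while BIM, the product of *Bcl2l11*, is a main cause of death when cytokine or antigen is withdrawn. Many of these proteins are controlled after translation, which RNA counts do not show.

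The total counts lay between 18319013 and 23622621 per library, and every CD8 T cell marker examined was above 0 in every library (7 of 7 genes). Their summed level was 2350 to 2506 CPM (counts relative to the library size after TMM normalization by edgeR) in TEff and 2952 to 4095 CPM in TRM-like cells. The B cell markers summed to 5.94 to 10.4 CPM and the macrophage markers to 2.63 to 4.81 CPM in any library. Most of the macrophage sum was *Cd68*, at 2.58 to 4.03 CPM. The macrophage marker *Lyz2* was at 0.612 CPM in TRM-like replicate 2 and at 0 in every other library. The NK cell marker *Klrb1c* was at 9.79, 21.9, and 11.8 CPM in TEff replicates 1 to 3 and at 8.55, 6.68, and 0.0922 CPM in TRM-like replicates 1 to 3. *Ncr1*, the other NK cell marker examined, went the other way on few counts. It had 1, 1, and 0 counts in TEff replicates 1 to 3 and 5, 6, and 0 in TRM-like replicates 1 to 3. The part of either marker in the results was not tested. Genes detected numbered 35130 and 35559 in TRM-like replicates 1 and 2 and 24229 to 24908 in the other 4 libraries. TRM-like replicate 3 stood apart from the other libraries of its group. The chi-square per gene, near 1 where only counting noise parts a pair of libraries, was 7.26 between TRM-like replicates 1 and 2 but 96.3 and 112 between each of them and replicate 3. Replicate 3 was nearer to TEff replicates 1 and 3, at 41.9 and 37.4, than to its own group. TEff replicate 2 was also apart from TEff replicates 1 and 3, at 26.1 and 25.4, against 3.73 between those. For the 10 genes, and for other genes whose call changed, values without TRM-like replicate 3 are therefore given as well. The fit without it compares TRM-like replicates 1 and 2, in which the most genes were detected, with all TEff libraries. Over 14822 genes, deviations of these libraries from their group mean correlated at 0.52 and 0.31 with those of TEff replicate 2. With those of TEff replicates 1 and 3 they correlated at -0.44 to -0.21. Deviations within a group sum to 0 for each gene, so the positive and negative correlations are tied and are not separate results. The part of these differences between libraries in that fit was not tested. In these bulk samples, fewer cells of a type and less RNA per cell cannot be told apart.

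The core of the BH3 domain (BCL2 homology 3) is the short stretch through which many family members bind each other. Its coding bases are shown because it occurs among guardians, BH3-only genes, and effectors, though the pattern used here does not find it in every gene. Each line holds 36 coding bases read 5′ to 3′ on the gene's strand, from the longest coding sequence of the gene in GENCODE M39 (GRCm39). Capitals mark a leucine codon and, after 3 further codons, a codon for glycine or alanine followed by a codon for aspartate. 
*Bcl2*, chr1:106640305-106640340, minus strand: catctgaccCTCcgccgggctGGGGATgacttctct
*Bcl2l1*, chr2:152671617-152671652, minus strand: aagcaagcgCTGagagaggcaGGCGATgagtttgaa
*Mcl1*, chr3:95566738-95566773, plus strand: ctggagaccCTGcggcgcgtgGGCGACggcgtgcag
*Bcl2l11*, chr2:127989061-127989096, plus strand: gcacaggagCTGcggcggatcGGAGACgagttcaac
*Bbc3*, chr7:16047689-16047724, plus strand: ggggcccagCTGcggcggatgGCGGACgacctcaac
*Bid*, chr6:120874250-120874285, minus strand: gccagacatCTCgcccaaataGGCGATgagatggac
*Bax*, chr7:45115421-45115456, minus strand: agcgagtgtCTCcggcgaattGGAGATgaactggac
*Bak1*, chr17:27241505-27241540, minus strand: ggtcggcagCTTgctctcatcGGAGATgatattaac
These 8 genes held the pattern 1 time each, *Pmaip1* held it 2 times, and it was not found in *Bcl2a1b*. The same pattern occurred in 24.4% of the 21478 coding sequences searched, so its presence alone does not mark a family member.

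None of the 10 genes differed between TRM-like and TEff cells past the threshold, which asked for more than 0.58 on the log2 scale in either direction and for p under 0.05 after adjustment (0 of 10 by the quasi-likelihood test of edgeR, adjusted by Benjamini-Hochberg over all genes). Across all 26154 genes tested, 3.01% passed. By DESeq2 and by limma-voom the number was also 0, and at an unadjusted p under 0.05 it was 1, which was *Bbc3*. Over all 26154 genes, 1256 passed by DESeq2, 737 passed by limma-voom, and 3871 were at an unadjusted p under 0.05 by edgeR. The log2 fold changes were positive for 5 genes and negative for 5, with a median of -0.04 against 0.02 over all genes. In 4 of the 10 genes the groups did not overlap, namely *Bcl2* and *Bcl2l1* (2 with TRM-like above, against 10.6% of all genes) and *Bbc3* and *Bax* (2 with TRM-like below, against 9.71%), while 20.3% of all genes did not overlap. A p-value that misses the threshold does not show that the groups were alike, and the 95% intervals of the fold changes show how large a difference could have been missed. Only for *Bax* and *Bak1* did the whole interval lie within 1.5-fold in either direction (2 of 10).

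**Figure D1:**
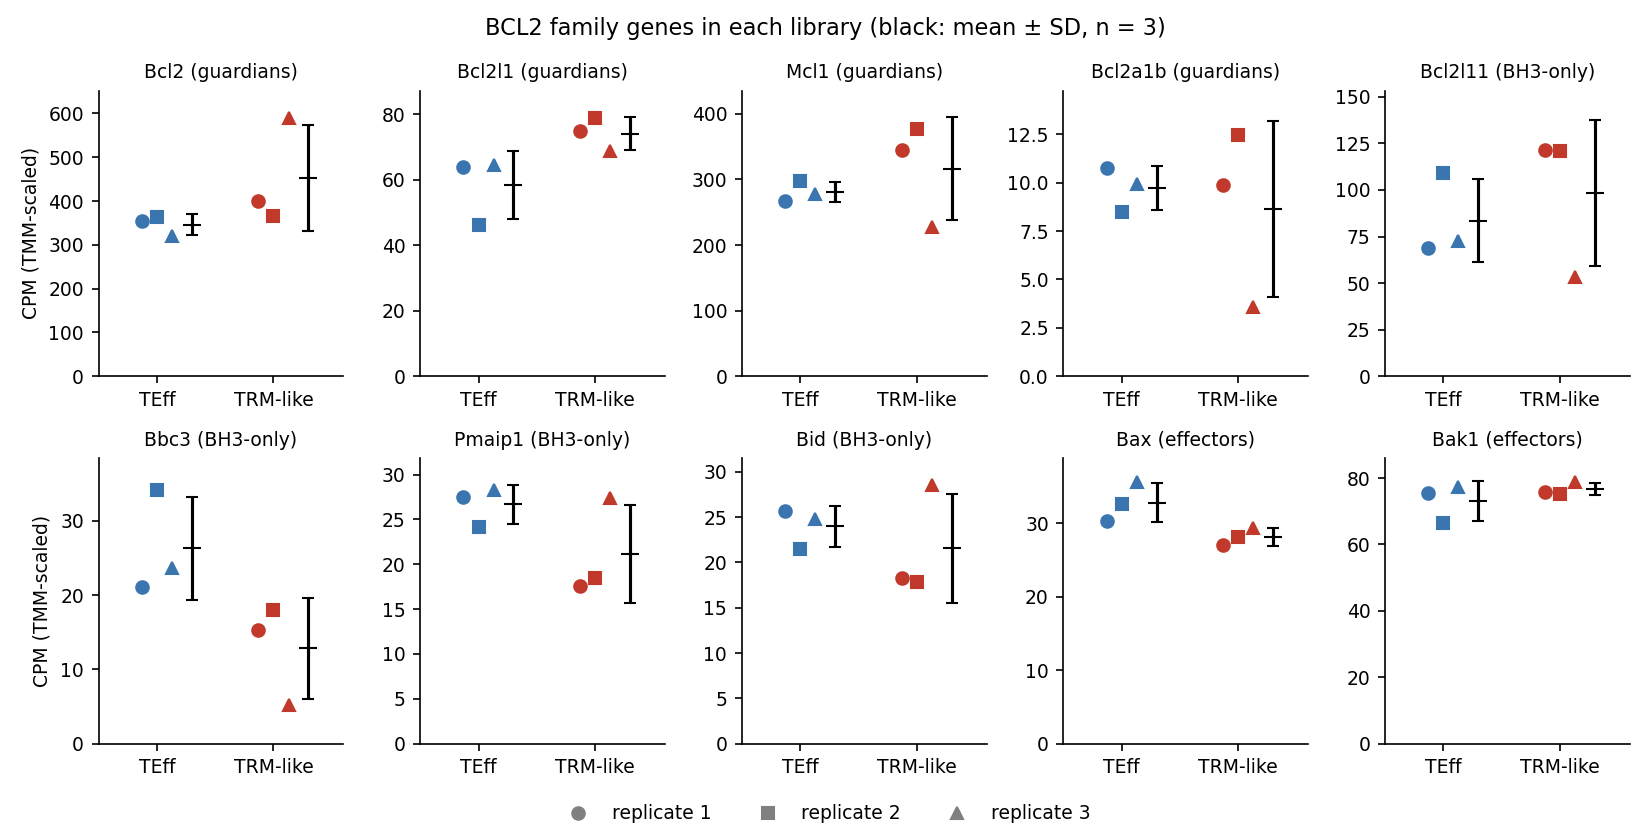
Level of each of the 10 genes (y axis, CPM scaled by TMM, from 0) in the 3 TEff and 3 TRM-like libraries (x axis), with the replicate shown by the marker and the mean ± SD in black. TRM-like replicate 3 is the highest TRM-like library for 5 genes and the lowest for the other 5.

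Among the guardians, *Mcl1* and *Bcl2* had the highest levels per length, and 0 of 4 passed the threshold. *Bcl2* (ENSMUSG00000057329; chromosome 1 of GRCm39, 106465908 to 106642060), the founding guardian, was at 355, 363, and 319 CPM in TEff replicates 1 to 3 and at 400, 367, and 591 CPM in TRM-like replicates 1 to 3. The groups did not overlap, but TRM-like replicate 2 lay just above the highest TEff library and replicate 3 carried most of the difference in means. Its log2 fold change was 0.39 (standard error 0.19, 95% interval -0.05 to 0.82, edgeR adjusted p = 0.409), and without TRM-like replicate 3 it was 0.14 (standard error 0.11, edgeR adjusted p = 0.417). *Mcl1* (ENSMUSG00000038612; chromosome 3, 95566026 to 95570487), which encodes a short-lived guardian, was at 268, 298, and 278 CPM in TEff replicates 1 to 3 and at 345, 377, and 228 CPM in TRM-like replicates 1 to 3. TRM-like replicates 1 and 2 were above every TEff library and replicate 3 was below every one. The log2 fold change was 0.17 (standard error 0.19, edgeR adjusted p = 0.750), and 0.35 without TRM-like replicate 3 (standard error 0.10, edgeR adjusted p = 0.0300), below the fold change required.

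*Bcl2l1* (ENSMUSG00000007659; chromosome 2, 152622582 to 152673655), whose main product in T cells is the guardian BCL-xL, was at 64.0, 46.3, and 64.7 CPM in TEff replicates 1 to 3 and at 74.8, 78.8, and 68.7 CPM in TRM-like replicates 1 to 3. Here the TRM-like libraries lay close together, all above the TEff libraries, and the lowest TEff value was that of replicate 2. The log2 fold change was 0.35 (standard error 0.16, 95% interval -0.01 to 0.70, edgeR adjusted p = 0.358), and 0.39 without TRM-like replicate 3 (edgeR adjusted p = 0.0687). Leaving out TEff replicate 2 instead lowered it to 0.20 (standard error 0.13, edgeR adjusted p = 0.610). *Bcl2l2*, the guardian BCL-w and not among the 10 genes, had a log2 fold change of the same size with all libraries, 0.35 (edgeR adjusted p = 0.362). It was at 10.02 to 11.1 CPM in TEff and 11.3 to 15.1 CPM in TRM-like cells.

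*Bcl2a1b* (ENSMUSG00000089929; chromosome 9, 89081262 to 89089889) encodes a copy of A1, a guardian induced by antigen receptor and NF-κB signals. Mice carry several near-identical A1 genes, and 90 coding bases from the start codon on are shown for 3 of them because reads shared between the copies limit what can be said of each. Capitals mark the positions at which the 3 copies differ within the stretch (6 of 90).
*Bcl2a1a*, chr9:88839104-88839193, plus strand: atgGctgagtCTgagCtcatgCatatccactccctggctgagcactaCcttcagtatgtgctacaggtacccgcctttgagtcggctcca
*Bcl2a1b*, chr9:89081413-89081502, plus strand: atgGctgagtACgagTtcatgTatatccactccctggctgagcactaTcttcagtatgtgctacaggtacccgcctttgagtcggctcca
*Bcl2a1d*, chr9:88613683-88613772, minus strand: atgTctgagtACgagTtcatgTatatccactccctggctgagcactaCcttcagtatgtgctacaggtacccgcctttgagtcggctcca
Over the 519 coding bases, stop codon included, *Bcl2a1b* was 97.88% identical to *Bcl2a1a* and 98.84% identical to *Bcl2a1d*, and the longest run with no difference among the 3 copies was 217 bases. The treatment of multi-mapping reads is not given in the sources used here, so the level of any copy is uncertain.

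*Bcl2a1b* was at 10.7, 8.50, and 9.95 CPM in TEff replicates 1 to 3 and at 9.86, 12.5, and 3.597 CPM in TRM-like replicates 1 to 3. The groups overlapped, and the library that departed was TRM-like replicate 3, which was below all others. The other copies had the same low library, with 1.15 CPM of *Bcl2a1a* in TRM-like replicate 3 against 3.29 to 4.37 CPM in the other 5 libraries, and 4.52 CPM of *Bcl2a1d* against 11.3 to 14.6 CPM. The log2 fold change of *Bcl2a1b* was -0.17 (standard error 0.37, edgeR adjusted p = 0.874), and -0.17 with the 3 copies summed (edgeR adjusted p = 0.873). Without TRM-like replicate 3 its sign turned, to 0.19 (standard error 0.16, edgeR adjusted p = 0.460). The neutrophil markers, of a cell type known for A1, summed to at most 0.218 CPM in any library, with *S100a8* and *S100a9* at 0 in all 6.

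Of the BH3-only genes, *Bbc3* had the largest difference, and in all 4 TRM-like replicate 3 lay apart from replicates 1 and 2. *Bbc3* (ENSMUSG00000002083; chromosome 7, 16042318 to 16052130) encodes PUMA, a p53 and FOXO target that binds every guardian. It was at 21.1, 34.2, and 23.6 CPM in TEff replicates 1 to 3 and at 15.4, 18.04, and 5.16 CPM in TRM-like replicates 1 to 3. Every TRM-like library was below every TEff library, and both groups spread widely, TEff through replicate 2 and TRM-like through replicate 3. Its log2 fold change was -1.03 (standard error 0.39, 95% interval -1.92 to -0.14 before adjustment), with an unadjusted p of 0.0275 and, by edgeR, 0.261 after adjustment. Without TRM-like replicate 3 it was -0.66 (standard error 0.18, edgeR adjusted p = 0.0202) and past the threshold, the only gene of the 10 to pass in that fit, in which 14.0% of all genes passed, 6.38% higher and 7.67% lower in TRM-like cells. The difference in means was thus smaller and the spread much smaller without that library. Leaving out TEff replicate 2 instead gave -0.80 (standard error 0.45, edgeR adjusted p = 0.544).

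*Bcl2l11* (ENSMUSG00000027381; chromosome 2, 127967958 to 128004476), the gene of BIM, was at 68.8, 109, and 72.7 CPM in TEff replicates 1 to 3 and at 121, 121, and 53.1 CPM in TRM-like replicates 1 to 3. TRM-like replicates 1 and 2 were above every TEff library and replicate 3 below every one, as for *Mcl1*. The log2 fold change was 0.24 (standard error 0.31, 95% interval -0.46 to 0.94, edgeR adjusted p = 0.784), and 0.53 without TRM-like replicate 3 (standard error 0.16, edgeR adjusted p = 0.0359), below the fold change required. Leaving out TEff replicate 2 instead gave 0.48 (standard error 0.34, edgeR adjusted p = 0.644). *Bmf*, another BH3-only gene, had its high and low libraries in the same places, with 34.2, 44.1, and 28.2 CPM in TEff replicates 1 to 3 and 51.5, 61.6, and 14.4 CPM in TRM-like replicates 1 to 3. In both genes TEff replicate 2 was the highest TEff library and TRM-like replicate 3 the lowest of all 6.

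*Pmaip1* (ENSMUSG00000024521; chromosome 18, 66591604 to 66598636) encodes NOXA, a p53 target that binds MCL1 and A1, and *Bid* (ENSMUSG00000004446; chromosome 6, 120862525 to 120894171) encodes the protein that links death receptors to mitochondria once caspase-8 has cut it. *Pmaip1* was at 27.5, 24.2, and 28.3 CPM in TEff replicates 1 to 3 and at 17.6, 18.5, and 27.4 CPM in TRM-like replicates 1 to 3. *Bid* was at 25.7, 21.5, and 24.8 CPM in TEff replicates 1 to 3 and at 18.3, 17.9, and 28.5 CPM in TRM-like replicates 1 to 3. In both, TRM-like replicates 1 and 2 were below every TEff library, while replicate 3 was at or above the TEff level. The log2 fold change of *Pmaip1* was -0.33 (standard error 0.19, edgeR adjusted p = 0.480), and -0.57 without TRM-like replicate 3 (edgeR adjusted p = 0.00487). That of *Bid* was -0.15 (standard error 0.20, edgeR adjusted p = 0.782), and -0.42 without that library (edgeR adjusted p = 0.0318). Neither reached the fold change required.

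The effectors were the most even genes of the family. *Bax* (ENSMUSG00000003873; chromosome 7, 45111015 to 45116325) was at 30.2, 32.6, and 35.5 CPM in TEff replicates 1 to 3 and at 27.0, 28.05, and 29.3 CPM in TRM-like replicates 1 to 3, with every TRM-like library below every TEff library. Its log2 fold change was -0.22 (standard error 0.12, 95% interval -0.50 to 0.06, edgeR adjusted p = 0.483). *Bak1* (ENSMUSG00000057789; chromosome 17, 27238784 to 27247983) was at 75.6, 66.4, and 77.4 CPM in TEff replicates 1 to 3 and at 75.9, 75.4, and 78.7 CPM in TRM-like replicates 1 to 3, and the groups overlapped. Its log2 fold change was 0.07 (standard error 0.12, 95% interval -0.21 to 0.35, edgeR adjusted p = 0.854). Without TRM-like replicate 3 the values were -0.26 for *Bax* and 0.04 for *Bak1*, so these 2 genes kept their level in the library that departed most elsewhere in the family.

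**Figure D2:**
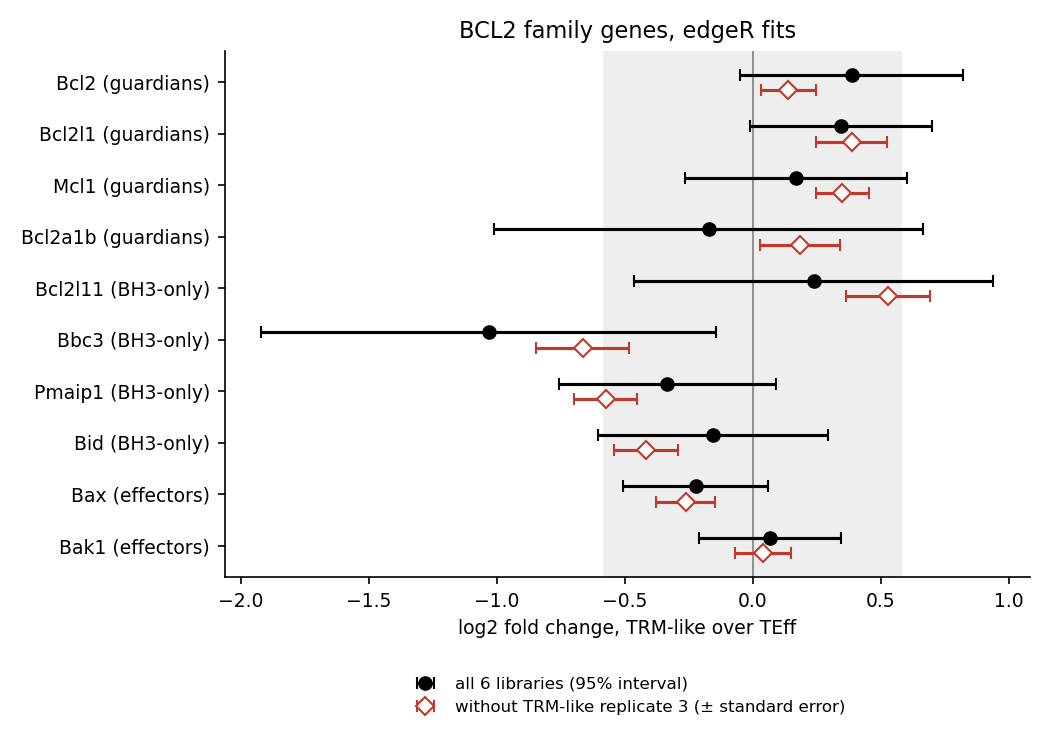
Log2 fold change of TRM-like over TEff (x axis) for the 10 genes (y axis), from all 6 libraries with 95% intervals (black) and without TRM-like replicate 3 with standard errors (red), and the grey band marks changes below 0.58. *Bbc3* alone lies outside the band, at -1.03, and leaving out the library moves *Bcl2a1b* across 0.

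Leaving out TRM-like replicate 3 gave an adjusted p below 0.05 to 5 of the 10 genes by the same edgeR test, 2 higher (*Mcl1* and *Bcl2l11*) and 3 lower (*Bbc3*, *Pmaip1*, and *Bid*) in TRM-like cells, and it gave one to 20.5% of all genes. Of the 5, only *Bbc3* was past the fold change of 0.58 as well. In that library *Bbc3* was 3.23-fold, *Bcl2a1b* 3.10-fold, and *Bcl2l11* 2.28-fold below the mean of TRM-like replicates 1 and 2, whereas *Bcl2*, *Pmaip1*, and *Bid* were 1.54-, 1.52-, and 1.58-fold above it. *Bcl2l1*, *Bax*, and *Bak1* were within 1.12-fold of that mean. The part of whatever sets this library apart in these differences was not tested, nor was that of the higher number of genes detected in TRM-like replicates 1 and 2.

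Promoters of 9 of the 10 genes were in the RefSeq table (GRCm38.p6), 14 promoters in all, and *Pmaip1* was not. They were searched over the 250 bases before each start for a p53 element (2 ten-base sites at most 13 bases apart, with up to 3 mismatches), for TGTTTAC, to which FOXO factors bind, and for TTCNNNGAA, to which STAT factors bind, on both strands. The 4 stretches of 30 bases that hold a match are shown, since p53 and FOXO factors are known regulators of *Bbc3*, the gene with the largest difference, and of *Bcl2l11* and *Bax*. Capitals mark the match, and each stretch is read on the gene's strand, so that a FOXO match on the other strand appears as GTAAACA.
*Bbc3*, p53 element, chr7:16309481-16309510, plus strand: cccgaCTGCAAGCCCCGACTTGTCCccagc
*Bbc3*, FOXO motif, chr7:16310083-16310112, plus strand: tctggcgggttTGTTTACaaacaatggggt
*Bax*, p53 element, chr7:45467087-45467116, minus strand: gaTGACAAGCATatcccAGGCAAGCTTtga
*Bcl2l11*, FOXO motif, chr2:128125800-128125829, plus strand: aagacactaggGTAAACAcgccggggtggg
A p53 element was thus found in 2 of the 14 promoters, against 5.62% of the 32851 promoters in the table, and TGTTTAC in 2 of the 14, against 3.17%. TTCNNNGAA was found in 0 of the 14, against 7.02%. A match describes the letters only, and no measurement of binding is at hand.

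Levels of different genes were compared per length, as RPKM (CPM divided by the deposited gene length in kilobases). The deposited length was 1814 bases for *Bbc3*, 2189 for *Bid*, and 6896 for *Bcl2l11*. Their exons cover 4790, 9796, and 10112 bases in GENCODE M39. Orders, shares, and ratios per length hold for the deposited lengths and were not computed with others. In TEff cells *Mcl1* was the highest of the 10 genes at 82.3 ± 4.56 RPKM (SD, n = 3), and its range did not overlap that of the next. *Bax* and *Bcl2* followed at 37.8 ± 3.07 and 37.8 ± 2.57 RPKM with overlapping ranges, and then *Bak1* at 30.6 ± 2.48 RPKM. The other 6 genes lay between 9.76 and 15.01 RPKM on average, each with a range that overlapped that of its neighbour. In TRM-like cells *Mcl1* was again the highest at 92.6 ± 23.0 RPKM, followed by *Bcl2* at 49.4 ± 13.2, *Bax* at 32.4 ± 1.37, and *Bak1* at 32.1 ± 0.752 RPKM. *Bcl2l1* was next at 19.1 ± 1.30 RPKM, well below *Bak1*. Its lowest library, at 17.68 RPKM, was barely above the highest library of *Bcl2l11*, at 17.58 RPKM. *Bbc3* was the sixth in TEff cells, at 14.5 ± 3.82 RPKM, and the last in TRM-like cells, at 7.09 ± 3.74 RPKM, although its range overlapped that of *Pmaip1* there.

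**Figure D3:**
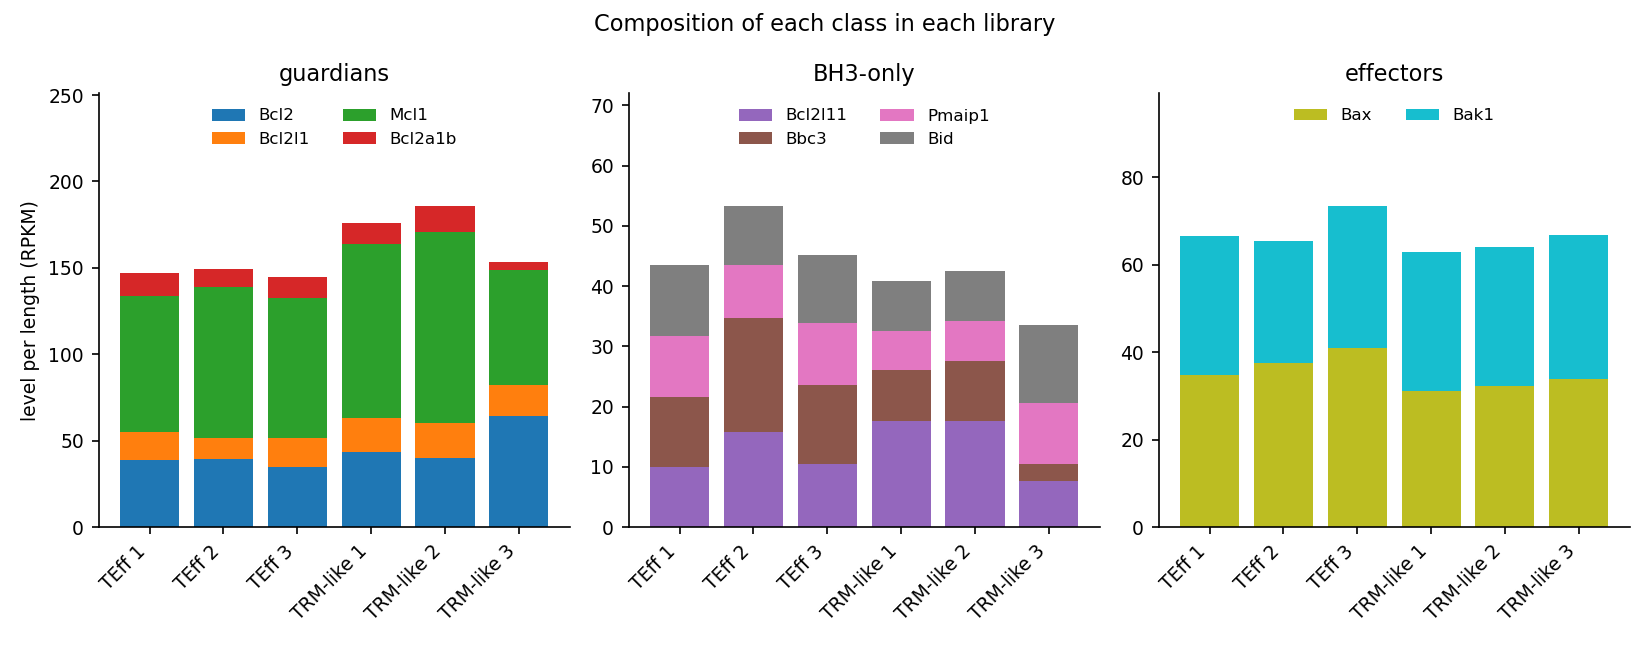
Level per length (y axis, RPKM, stacked from 0) of the guardians, BH3-only genes, and effectors in each library (x axis), with the genes of a class in different colours. *Mcl1* is the largest part of the guardian sum in every library, and TRM-like replicate 3 has the smallest BH3-only sum, 33.6 RPKM.

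The make-up of the guardian and BH3-only classes differed between TRM-like replicate 3 and the other libraries of its group. *Mcl1* made up 53.4% to 58.5% of the summed guardian level in the TEff libraries, 57.4% and 59.3% in TRM-like replicates 1 and 2, and 43.5% in replicate 3. *Bcl2* made up 24.0% to 26.6%, 24.8% and 21.5%, and 42.1% in the same libraries. Among the BH3-only genes, *Bcl2l11* made up 23.0% to 29.6% in the TEff libraries, 43.1% and 41.4% in TRM-like replicates 1 and 2, and 22.9% in replicate 3. *Bbc3* made up 26.8% to 35.3% in the TEff libraries, 20.7% and 23.4% in TRM-like replicates 1 and 2, and 8.47% in replicate 3. *Bax* made up 52.4% to 57.5% of the effector sum in the TEff libraries and 49.4% to 50.6% in the TRM-like libraries, so that *Bak1* had nearly the same level as *Bax* in the latter.

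The ratio of the guardian sum to the BH3-only sum, per length, was 3.38, 2.80, and 3.21 in TEff replicates 1 to 3 and 4.31, 4.38, and 4.56 in TRM-like replicates 1 to 3. Every TRM-like library was above every TEff library, TRM-like replicate 3 included, and the group means were 3.13 ± 0.297 and 4.42 ± 0.128 (SD, n = 3). The ratio was formed after the values of the genes were seen and is given without a test. It stayed apart without *Mcl1* (1.16 to 1.58 against 1.78 to 2.57), without *Bcl2* (2.06 to 2.49 against 2.64 to 3.44), without *Bbc3* (4.33 to 4.62 against 4.98 to 5.72), and with 6 further family genes added (2.54 to 3.02 against 3.42 to 3.90). With CPM not divided by length, which weights long transcripts, the groups overlapped (3.80 to 4.88 against 4.76 to 7.80). These variants use the same libraries and mostly the same genes, so they are no separate support for the first ratio.

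Ratios to *Bcl2l11* alone did not part the groups. *Bcl2* to *Bcl2l11*, per length, was 3.89, 2.51, and 3.31 in TEff replicates 1 to 3 and 2.49, 2.28, and 8.38 in TRM-like replicates 1 to 3. TRM-like replicates 1 and 2 were thus just below the lowest TEff library, and replicate 3 was far above the highest. *Mcl1* to *Bcl2l11* was 5.52 to 7.85 in TEff and 5.74, 6.28, and 8.66 in TRM-like replicates 1 to 3, and *Bcl2l1* to *Bcl2l11* was 0.754 to 1.65 and 1.10, 1.15, and 2.30. In these ratios, too, TRM-like replicate 3 was the highest library.

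**Figure D4:**
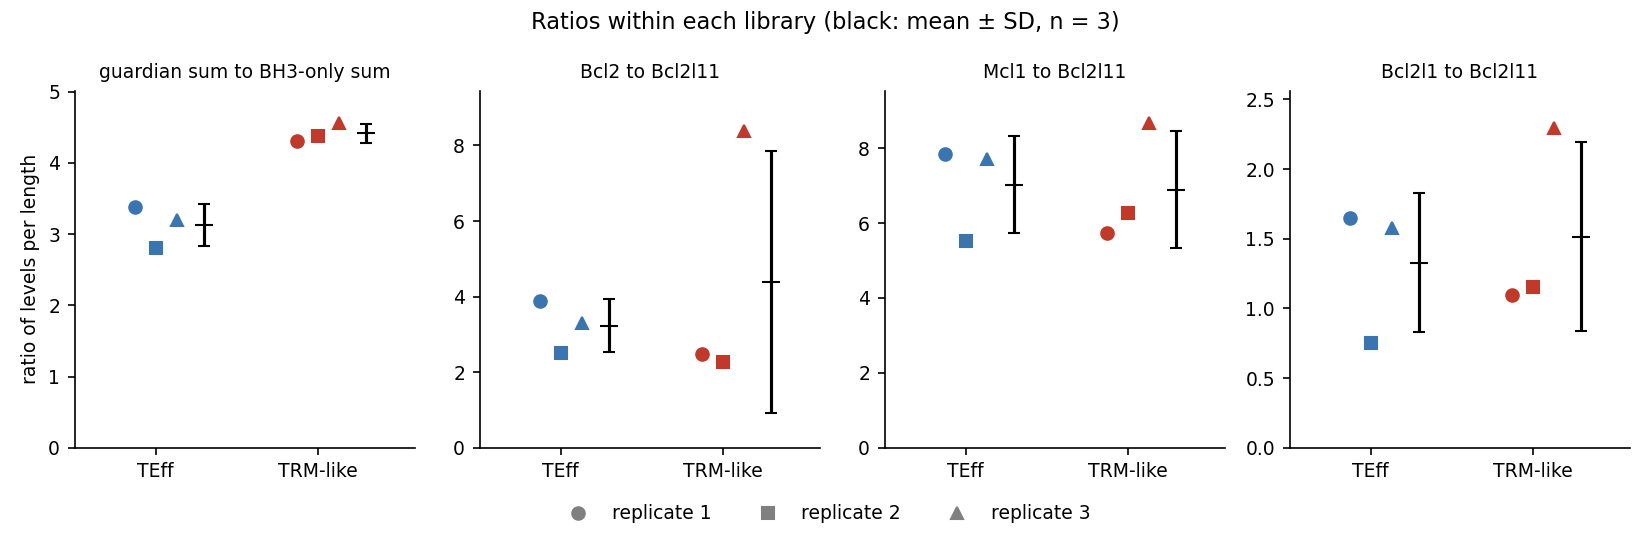
Ratios of levels per length within each library (y axis, from 0) for the guardian sum over the BH3-only sum and for 3 guardians over *Bcl2l11*, by group (x axis), with the replicate shown by the marker and the mean ± SD in black. Only the ratio of sums keeps the groups apart, at 2.80 to 3.38 and 4.31 to 4.56.

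The genes whose profile over the 6 libraries was closest to that of *Bbc3*, by the root mean square difference of centred log2 CPM among 14821 other genes with at least 10 counts in every library, were *Rasgef1a* (0.10), *A930024E05Rik* (0.10), and *Gm32633* (0.10). Their log2 fold changes were -1.05, -1.05, and -0.93, none past the threshold (edgeR adjusted p = 0.299, 0.198, and 0.291). For *Bcl2l1*, which had the next smallest p of the 10 genes, the closest were *C1d* (0.04), *Rcc1l* (0.06), and *Ebag9* (0.06), with log2 fold changes of 0.40, 0.32, and 0.31, none past the threshold (edgeR adjusted p = 0.256, 0.387, and 0.417).

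Around the 10 genes, 70 other genes of the pathway were read out from the same fit, of which 66 were tested. *Bcl2a1c*, *Bcl2l10*, and *Hrk* did not pass the filter on low counts, and *Ddit3* was listed under 2 overlapping identifiers and not read. By the same edgeR test 1 was higher and 2 were lower in TRM-like cells, all 3 p53 targets outside the family, against 1.52% and 1.48% of all genes. *Cdkn1a*, which encodes the cell cycle inhibitor p21, fell by 1.98 in log2 units (standard error 0.30; edgeR adjusted p = 0.00825), from 8.45 to 9.83 CPM in TEff to 1.61, 1.83, and 3.597 CPM in TRM-like replicates 1 to 3. *Plk2*, a stress-induced kinase, fell by 2.33 (standard error 0.41, edgeR adjusted p = 0.0177), from 2.48 to 3.66 CPM to 0.323 to 1.00 CPM. *Plk3*, a related kinase, rose by 0.84 (standard error 0.16, edgeR adjusted p = 0.0241), from 8.50 to 9.14 CPM to 13.5 to 17.7 CPM.

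The other 10 p53 targets did not pass by edgeR. Of all 13, 8 were at an unadjusted p under 0.05, and 5 passed by DESeq2 and 3 by limma-voom. Over all 26154 genes tested the numbers were 3871, 1256, and 737. *Phlda3* had a log2 fold change of -1.11 (edgeR adjusted p = 0.0560), *Aen* of 0.61 (edgeR adjusted p = 0.0640), and *Mdm2*, the main brake on p53, of -0.22 (edgeR adjusted p = 0.519). *Trp53inp1* was at 209 to 262 CPM in TEff, at 520 and 552 CPM in TRM-like replicates 1 and 2, and at 212 CPM in replicate 3, within the TEff range. TRM-like replicates 1 and 2 were the highest libraries of *Trp53inp1*, *Bcl2l11*, and *Bmf*, but replicate 3 was the lowest only for *Bcl2l11* and *Bmf*. *Trp53* itself had a log2 fold change of -0.33 (edgeR adjusted p = 0.419), and its libraries ran from 80.9 to 88.2 CPM in TEff and stood at 55.8, 62.6, and 84.0 CPM in TRM-like replicates 1 to 3. Among the 8 tested regulators of family transcription 0 passed by edgeR, DESeq2, or limma-voom, with 1 at an unadjusted p under 0.05, *Rela*, a subunit of NF-κB, at 0.44 (edgeR adjusted p = 0.228). *Foxo1* had a log2 fold change of -0.30 and *Foxo3* of -0.29, with p by edgeR of 0.488 and 0.516 after adjustment.

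Downstream of the mitochondria, 0 of 8 genes of the apoptosome and caspases passed by edgeR or limma-voom and 1 by DESeq2, with 4 at an unadjusted p under 0.05. Of all 26154 genes tested, 3871 were at an unadjusted p under 0.05 by edgeR. *Casp6*, an executioner caspase, was at 4.76 to 4.94 CPM in TEff and at 10.2, 11.2, and 6.78 CPM in TRM-like replicates 1 to 3, all above, with a log2 fold change of 0.95 (standard error 0.22, edgeR adjusted p = 0.0535). *Casp2* had -0.47 (edgeR adjusted p = 0.0875) and *Apaf1*, the scaffold of the apoptosome, -0.41 (edgeR adjusted p = 0.182), each with every TRM-like library below every TEff library. None of the 7 inhibitors of apoptosis and their antagonists passed by any of the 3 tools (0, and 0 at an unadjusted p under 0.05), with log2 fold changes of -0.14 for *Birc3*, -0.23 for *Birc5*, and 0.15 for *Birc2*, the 3 with the smallest p.

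In the death receptor pathway 0 of 8 genes passed by any of the 3 tools, with 1, *Tradd*, at an unadjusted p under 0.05 (log2 fold change 0.30, edgeR adjusted p = 0.319). *Fasl* was at 54.0 to 65.7 CPM in TEff and at 90.8, 95.3, and 53.5 CPM in TRM-like replicates 1 to 3, so that replicate 3 was apart from the rest of its group again, and *Cflar*, a decoy of caspase-8, had a log2 fold change of -0.22. Of the 8 BCL2-like and BNIP genes, 0 passed by edgeR or limma-voom and 1 by DESeq2, with 1 at an unadjusted p under 0.05. That gene was *Bnip3l*, a mitophagy receptor, at 65.9 to 84.8 CPM in TEff and 96.5 to 126 CPM in TRM-like cells (log2 fold change 0.57, standard error 0.16, edgeR adjusted p = 0.112). *Bnip1* had a log2 fold change of 0.31 (edgeR adjusted p = 0.362). The *Bnip3l* relative *Bnip3* was at 13.1 to 30.04 CPM in TEff, at 25.6 and 27.4 CPM in TRM-like replicates 1 and 2, and at 67.5 CPM in replicate 3. The genes for MCL1 turnover (4), for partners of BIM and BAK (3), other guardians (3 tested), and other BH3-only and effector genes (4 tested) held 0 genes past the threshold by any of the 3 tools and 0 at an unadjusted p under 0.05. Their smallest p belonged to *Usp9x*, *Btrc*, and *Huwe1* (log2 fold changes of -0.20, 0.21, and -0.11), to *Vdac2*, *Dynll1*, and *Dynll2* (0.17, 0.13, and 0.15), and to *Bad*, *Bik*, and *Bmf* (0.38, 0.21, and 0.26).

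Without TRM-like replicate 3, 6 of the wider pathway genes were higher and 4 were lower in TRM-like cells by the edgeR test, against 6.38% and 7.67% of all genes in that fit. *Cdkn1a*, *Plk2*, and *Plk3* passed in that fit too, at -2.43, -2.06, and 0.92 on the log2 scale. Higher besides *Plk3* were *Trp53inp1* at 1.22 (edgeR adjusted p = 1.03e-05), *Casp6* at 1.13 (0.000151), *Bnip3l* at 0.67 (0.00175), *Bmf* at 0.66 (0.00982), and *Fasl* at 0.65 (0.00118). Lower besides *Cdkn1a* and *Plk2* were *Phlda3* at -1.24 (edgeR adjusted p = 0.00521) and *Tnfrsf10b*, a death receptor, at -0.74 (0.0498). These 7 genes did not pass by edgeR with all 6 libraries.

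**Figure D5:**
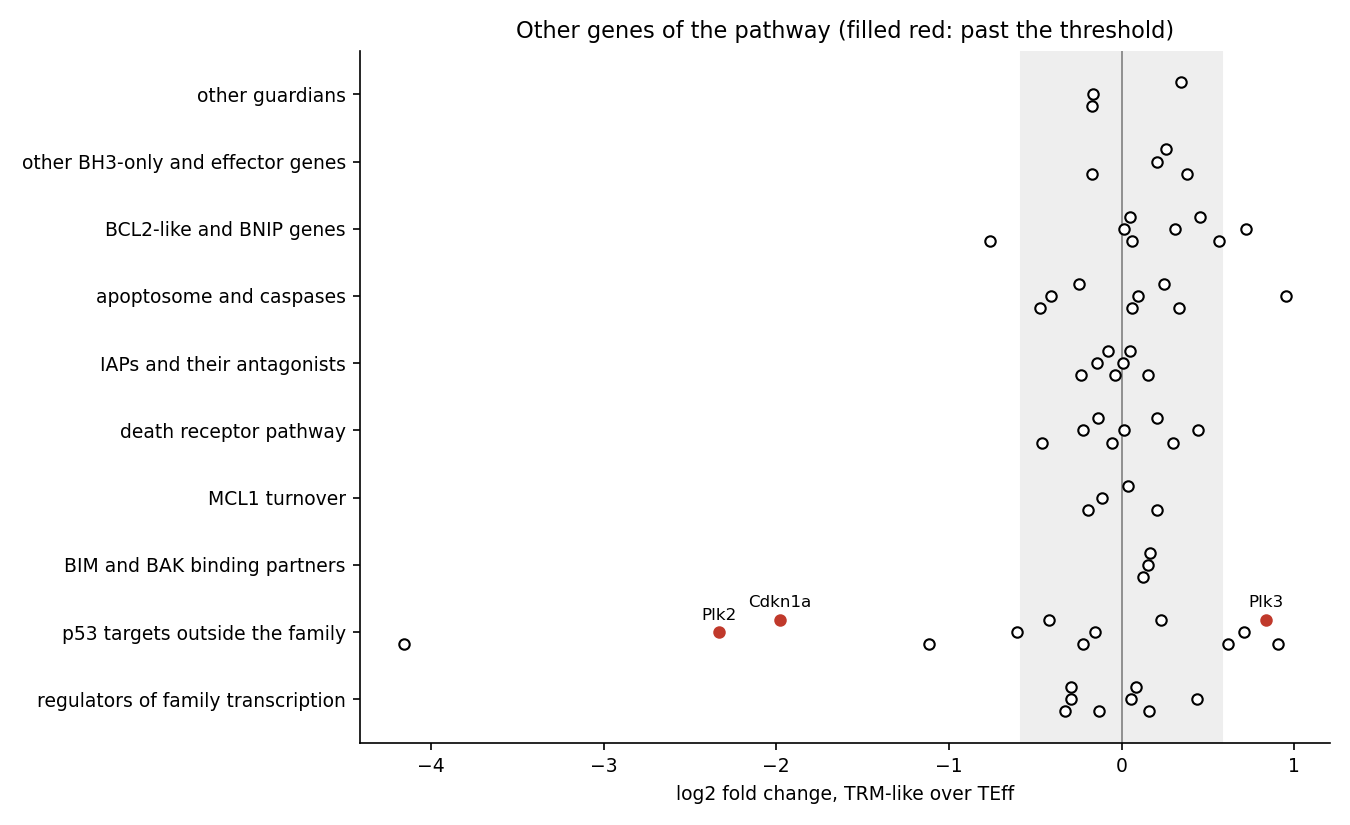
Log2 fold change of TRM-like over TEff (x axis) for the 66 other pathway genes tested, grouped by list (y axis), with the 3 genes past the threshold filled and named and the grey band marking changes below 0.58. All 3 lie in the list of p53 targets outside the family, *Plk2* at -2.33 and *Cdkn1a* at -1.98 on the lower side and *Plk3* at 0.84 on the higher.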

How the data were processed

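RNA was sequenced from 6 samples, 3 TEff and 3 TRM-like, grouped by the sample labels. The authors trimmed the reads with Cutadapt 4.8, used Rsubread for mapping and counting (GRCm39, GENCODE genes), and deposited the unnormalized counts with each gene's length. The strand setting and the counting of reads mapping to several places are not given in the sources used here. The batch that the study removed is not named, so none was removed. Symbols and coordinates came from GENCODE M39, in which 56620 of 57126 genes were found. There, exons of *Bcl2*, *Bcl2l1*, *Bcl2l11*, *Bid*, *Bax*, and *Bak1* overlap genes on the opposite strand, and exons of *Bcl2a1b*, *Bcl2l11*, and *Bax* overlap genes on the same strand.

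Differences were tested with edgeR 4.0.16 (R 4.3.3; TMM, glmQLFit, glmQLFTest, Benjamini-Hochberg adjustment) on the genes detected (1 count or more) in 3 or more samples. Standard errors are the log2 fold change divided by the square root of F. Alternatives were DESeq2 1.42.0, limma-voom (limma 3.58.1), other scalings and filters, the replicate number as a block, summed *Bcl2a1* copies, and each sample left out. The test was checked on simulated data. The members and lists were chosen with earlier results of these data known. Named are the 10 members, and in each wider list the genes past the threshold and the 3 with the smallest p; for *Bbc3* and *Bcl2l1*, the members with the smallest p, also the 3 nearest profiles. *Phlda3*, *Aen*, *Mdm2*, *Trp53inp1*, *Foxo3*, *Tnfrsf10b*, *Klrb1c*, *Ncr1*, and *Cd68* were added after their values were seen.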

Additional observations from a re-analysis of the deposited data

How the results depend on the processing

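Of the 151 comparisons of a member's log2 fold change with an alternative, 146 kept both their direction and their side of the threshold, 4 gained the threshold, and 1 turned its sign. The 4 were all *Bbc3*, with no filter (-1.04), with the replicate block (-1.15), with that block and at least 10 counts in every sample (-1.14), and without TRM-like replicate 3 (-0.66). Over its alternatives its log2 fold change was -1.36 to -0.66 and its adjusted p 5.99e-08 to 0.544. The lowest adjusted p by edgeR were 5.99e-08 with the replicate block and 1.81e-06 with no filter. In both fits its standard error was 0.19, against 0.39 in the main setting, while its log2 fold change moved little. The turned sign was *Bcl2a1b* without TRM-like replicate 3 (0.19), where leaving out each sample gave -0.53 to 0.19. The number of the 10 members past the threshold was 0 in the main setting, 1 with no filter, and 0 to 1 with each sample left out. The number over all genes, 786 in the main setting, was 1256 with DESeq2, 1868 with no filter, and 263 to 3579 with each sample left out, highest without TRM-like replicate 3. The number of wider pathway genes, 3 in the main setting, was 7 with DESeq2, 5 with filterByExpr, 9 with no filter, and 0 to 10 with each sample left out, highest without TRM-like replicate 3. The causes of these shifts were not tested. The gene with the fewest counts, *Bcl2a1b*, had 78 in its lowest library.

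The replicate numbers were not taken to pair the samples, since deviations from the group means of same-numbered samples correlated at -0.29, 0.31, and 0.39 for numbers 1, 2, and 3 over 14822 genes, and the highest value, 0.52, was between TEff replicate 2 and TRM-like replicate 1. With the replicate block, the number was 1 for the members, 2034 for all genes, and 9 for the wider genes. With that block and at least 10 counts in every sample, chosen for these counts after the data were seen, it was 1 for the members, 903 for all genes, and 5 for the wider genes.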
